A study of Brassica napus with 6 samples.

Results

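In the third mutant library of this rapeseed (Brassica napus) series, 12 genes lay far from their level in all 5 other libraries. Of these, 2 were far above and 10 far below. The 12 were chosen by their own values. In CPM (a gene's count over all counts in genes of the library, times 1000000), with 0.5 added, a gene had to be at least 3 times above the highest or 3 times below the lowest of the other 5 libraries. It also needed a mean of at least 2 and under 500 CPM and more than 3 counts in each group, and genes of chromosomes C03, A09 and A10 and of unplaced scaffolds were left out. Of the 100194 rows of the table, 32112 met these other conditions, and the 12 are 0.0374% of those. Another 2 rows met the fold condition but were left out, 1 on C03 and 1 on a scaffold, and both were far below. Because the values of mutant library 3 chose the genes, its levels are given as a description, with no test.

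The series compared shoot apices of the wild-type cultivar Westar with those of a mutant whose BnaC3 copy of LEAFY lacks its second intron, labelled BnaC3.lfy△I2. Each group had 3 libraries of polyadenylated RNA from chamber-grown plants, and no treatment is named. The labels do not give plant age or stage, how many independent edited lines were used, whether apices were pooled, or whether libraries of a group came from separate plants. For this reason a p-value here reflects only how far these libraries spread, and part of that spread may be technical.

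LEAFY is a transcription factor that gives new meristems of the shoot apex their floral identity. The apex is a small tissue that holds stem cells, young leaf and flower primordia and the tissue just beneath them. Rapeseed carries an A and a C subgenome, so most genes have a close copy on the other subgenome, and reads of such copies can be hard to assign. In RNA from whole apices, fewer cells of a type and less RNA per cell cannot be told apart. The gene IDs of the table name a chromosome and a running number along it. They are not paired with gene names, and 0 of them matched the RefSeq gene table of the Da-Ae assembly, so no function or sequence is given, and neither the tissue label nor the deletion could be checked against marker genes. Genes are called below by chromosome and ID number.

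The libraries held 15922207 to 23261028 counts in genes, and mutant library 3 had the fewest. Its typical gene also scattered more: over the 32112 genes, the median absolute log2 deviation from the other 5 libraries was 0.217 in this library and 0.167 to 0.182 in the rest. It was the lowest of the 6 libraries at 20.9% of these genes and the highest at 22.3%. In the other libraries these shares ran from 11.5% to 21.3% for the lowest place and from 11.3% to 21.8% for the highest. The part that depth and scatter had in the choice of the 12 genes was not tested.

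The 2 genes far above behaved differently from each other. BnaA03T0015200WE, number 152 on A03, had 40.8 CPM in mutant library 3, from 650 counts. It had 9.99 CPM in mutant library 2 and 4.34 CPM in Westar library 1. In the remaining libraries it was close to silent, at 0.225 CPM in Westar library 2, 0.274 CPM in Westar library 3 and 0.0546 CPM in mutant library 1, from 4, 5 and 1 counts. This gene was thus on in 3 libraries of both genotypes and nearly off in the other 3, and mutant library 3 was the highest of those in which it was on. BnaA05T0179900WE, number 1799 on A05, had 7.66 CPM in mutant library 3 (122 counts). It had 2.06, 0.955 and 1.64 CPM in Westar libraries 1, 2 and 3, and 1.26 CPM in both mutant libraries 1 and 2. It was low in the 5 other libraries, with a coefficient of variation of 29.8% over them, and without mutant library 3 its mean of 1.44 CPM would not have met the minimum of 2 CPM.

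The gene farthest below was BnaC05T0558600WE, number 5586 on C05. It had 28.6, 40.5 and 37.4 CPM in Westar libraries 1, 2 and 3, and 32.1 and 37.9 CPM in mutant libraries 1 and 2, from 589 to 721 counts each. In mutant library 3 it had 2.83 CPM from 45 counts (95% exact Poisson interval 2.06 to 3.78 CPM, which covers counting error only). That is 7.55% of the median of the other 5 libraries. With 0.5 added, the lowest other library was 8.75 times above it, where the other 9 genes far below reached 3.01 to 3.91 times. It was the sole member that still met the rule when the fold was raised to 4.

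BnaC01T0439900WE, number 4399 on C01, came next by distance from the lowest other library with 0.5 added (3.91 times, beside 3.87 times for gene 406 of C01). Its levels were 9.07, 15.3 and 11.9 CPM in Westar libraries 1, 2 and 3 and 10.9 and 11.1 CPM in mutant libraries 1 and 2, against 1.95 CPM in mutant library 3, which is 17.5% of the median of the other 5. The other 2 genes of C01 differed in level. Gene 986 was nearly constant in Westar, at 11.7, 11.9 and 11.7 CPM, with 13.4 and 10.6 CPM in mutant libraries 1 and 2 and 2.76 CPM in mutant library 3. Gene 406 was the weakest of the genes far below, at 2.41, 5.06 and 2.63 CPM in Westar and 3.33 and 2.68 CPM in mutant libraries 1 and 2. In mutant library 3 it had 0.251 CPM from 4 counts (95% exact Poisson interval 0.0684 to 0.643 CPM), or 9.37% of the median of the other 5, the second lowest share after BnaC05T0558600WE. The size of its drop is thus the least precisely known.

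Another 3 genes far below lay on C02. Gene 2026 was the most abundant member in the other 5 libraries, at 35.0, 45.4 and 43.9 CPM in Westar and 42.8 and 44.3 CPM in mutant libraries 1 and 2, and had 11.2 CPM in mutant library 3. Gene 5058 had 16.7, 25.6 and 20.0 CPM in Westar, 20.3 and 18.0 CPM in mutant libraries 1 and 2, and 4.84 CPM in mutant library 3. Gene 1581 had 9.80, 8.88 and 11.5 CPM in Westar, 8.13 and 8.73 CPM in mutant libraries 1 and 2, and 1.82 CPM in mutant library 3. In all 3 genes the level of mutant library 3 was between 20.5% and 25.4% of the median of the other libraries.

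The remaining genes far below lay on C08, C09 and A03. Gene 243 of C08 had 9.72, 12.02 and 9.86 CPM in Westar, 8.73 and 9.73 CPM in mutant libraries 1 and 2, and 2.26 CPM in mutant library 3. Gene 1970 of C09 had 23.1, 28.3 and 29.0 CPM in Westar, 23.6 and 25.9 CPM in mutant libraries 1 and 2, and 6.78 CPM in mutant library 3. At both genes the Westar and the other mutant libraries overlapped. Gene 5062 of A03 had 12.8, 14.3 and 13.6 CPM in Westar, 8.57 and 7.99 CPM in mutant libraries 1 and 2, and 2.32 CPM in mutant library 3. Here the 2 other mutant libraries also lay below every Westar library, and mutant library 3 lay lower still.

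**Figure D1:**
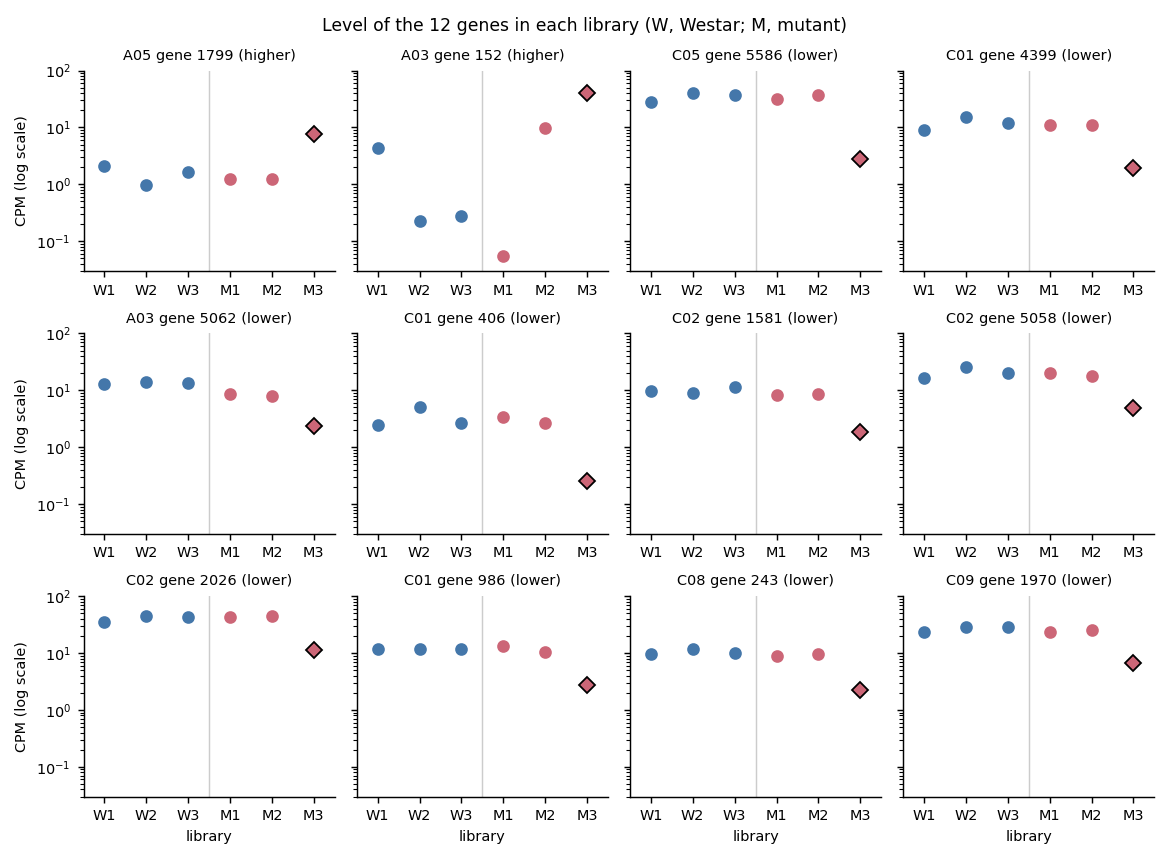
Level of each of the 12 genes in CPM, on a log axis, in the 3 Westar libraries (blue, W1 to W3) and the 3 mutant libraries (red, M1 to M3); the outlined diamond is mutant library 3. It lies below all other points at 10 genes and above them at 2, and A03 gene 152 is the one gene whose other libraries are also far apart.

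In mean level and spread over the other 5 libraries, the 10 genes far below had medians near those of the 32112 genes. The rule used the lowest of those 5 values, so this spread is not independent of the choice. In mutant library 3 they were at 7.55% to 26.2% of the median of the other 5 libraries, with a median of 21.9%. None of the 10 was at 0 counts in this library. Their mean level in the other 5 libraries was 3.22 to 42.3 CPM (median 11.8), beside a median of 11.5 CPM over the 32112 genes. Their coefficient of variation over those 5 libraries was 8.46% to 33.6% (median 13.8%), beside a median of 14.7% over the same 32112 genes. The highest and lowest of the 5 were within 2 times of each other at all 10 genes (CPM + 0.5). The 10 genes had 48 to 842 counts in each of the other libraries and 4 to 178 counts in mutant library 3. At all 12 genes the exact Poisson interval of mutant library 3 did not reach that of any other library (counting error only); the rule itself selected for such a gap.

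The limit of 3 times cut through a continuous range. Just inside on the lower side was gene 5062 of A03, at 3.01 times. The first gene outside, also on A03, reached 2.91 times, with 1.82 CPM in mutant library 3 and 6.24 to 10.1 CPM in the others. On the higher side BnaA05T0179900WE was the last inside, at 3.18 times. The first outside lay on C07 at 2.87 times, with 86.7 CPM in mutant library 3 and 8.09 to 29.9 CPM in the others.

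The first comparison, of the study's design, set all 3 mutant libraries against the 3 Westar libraries. Mutant library 3 entered it and chose the genes, so the values are a description. All 10 genes far below had a negative log2 fold change (-1.05 to -0.29) and both genes far above a positive one (3.32 for BnaA03T0015200WE and 1.13 for BnaA05T0179900WE). By the quasi-likelihood test of edgeR, adjusted by Benjamini-Hochberg over 48524 genes, 0 of the 12 were called changed, where 0.194% of all genes tested were called. With DESeq2 the number was also 0, where 1.61% of all genes were called. An unadjusted p under 0.05 was found for 2 of the 12 by either tool, where 11.5% of all genes had one by edgeR and 9.91% by DESeq2. At BnaC05T0558600WE, a Westar level of 35.5 ± 6.19 CPM faced a mutant level of 24.3 ± 18.8 CPM (SD, n = 3 each), and the log2 fold change was -0.49 with a standard error of 0.63. Mutant library 3 chose the genes and is part of this mutant spread, so nothing is read from these counts.

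The second comparison left mutant library 3 out and asked whether mutant libraries 1 and 2 differed from the 3 Westar libraries at these genes. The rule did not use the order of these 5 libraries, but it did use their lowest or highest value. It can thus favour genes at which the 5 lie close together, so small differences here may partly follow from the rule. Of the 12 genes, 0 were called changed (edgeR, adjusted p of 0.119 to 0.953 over 49303 genes), where 0.339% of all genes tested were called. DESeq2 also called 0, where it called 2.34% of all genes. By either tool 1 gene had an unadjusted p under 0.05, where 13.7% of all genes tested did by edgeR and 11.4% by DESeq2. That gene was number 5062 of A03.

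Gene 5062 of A03 had 13.6 ± 0.731 CPM in Westar (SD, n = 3) and a mean of 8.28 CPM in mutant libraries 1 and 2, which differed by 0.577 CPM. The log2 fold change was -0.66 with a standard error of 0.15, and both mutant libraries lay below all 3 Westar libraries. It did not pass the adjustment (edgeR adjusted p = 0.119). Over 9 alternatives the adjusted p ran from 0.0501 (DESeq2) to 0.445 (edgeR without mutant library 2), and the log2 fold change from -0.73 to -0.59. The groups of these 5 libraries also did not overlap at gene 1581 of C02, whose log2 fold change of -0.20 did not pass (edgeR adjusted p = 0.628). Groups without overlap were found at 32.1% of all genes tested, and with the mutant the lower one at 20.4%.

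For the 9 other genes far below, the log2 fold changes without mutant library 3 lay between -0.20 and 0.12 (edgeR adjusted p of 0.628 to 0.953). Their median was -0.06, beside -0.01 over all genes tested. Of all 10 genes far below, 7 had a negative value and 3 a positive one, and 51.0% of all genes tested were negative. The normal 95% intervals of the 9 values spanned -0.85 to 0.64, both limits being those of the least precise gene, number 406 of C01. Normal intervals are narrower here than the F test would give. At BnaC05T0558600WE the value was 0.03, with a 95% interval of -0.30 to 0.36, whereas mutant library 3 lay at -3.51 on the log2 scale relative to the median of the others. At BnaA03T0015200WE the log2 fold change was 1.62 with a standard error of 1.32 (edgeR adjusted p = 0.631). It turned to -4.69 without mutant library 2, the one other mutant library in which this gene was on. At BnaA05T0179900WE it was -0.25 with a standard error of 0.42 (edgeR adjusted p = 0.833).

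**Figure D2:**
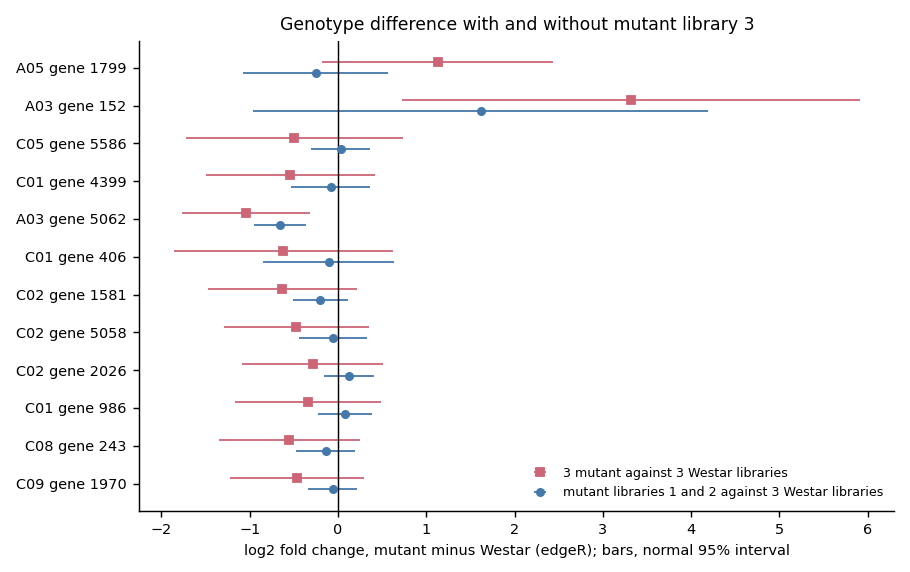
Log2 fold change, mutant minus Westar, of the 12 genes with all 6 libraries (red squares) and without mutant library 3 (blue circles). Bars are normal 95% intervals, narrower than the F test would give, and zero is no difference. Without mutant library 3, the 10 genes far below lie between -0.66 and 0.12, and A03 gene 5062 is the one whose bar stays clear of zero, although it did not pass the adjustment over all genes.

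Mutant library 3 was not the sole library with genes set apart. The same rule, applied to each library in turn over the same 32112 genes, gave 13 genes in mutant library 1, 12 in mutant library 3, 10 in Westar library 1, 9 in mutant library 2 and 2 in each of Westar libraries 2 and 3. The direction differed: all 13 of mutant library 1 and all 9 of mutant library 2 lay far above the rest, whereas 10 of 12 in mutant library 3 and 8 of 10 in Westar library 1 lay far below. With a fold of 2, mutant library 3 had 14 genes above and 58 below, Westar library 1 had 12 and 51, mutant library 1 had 42 and 17, and mutant library 2 had 81 and 1. Mutant library 3 and Westar library 1, the libraries with the most genes far below, were those with the fewest and the most counts in all. These counts have no replicate, and their differences were not tested.

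**Figure D3:**
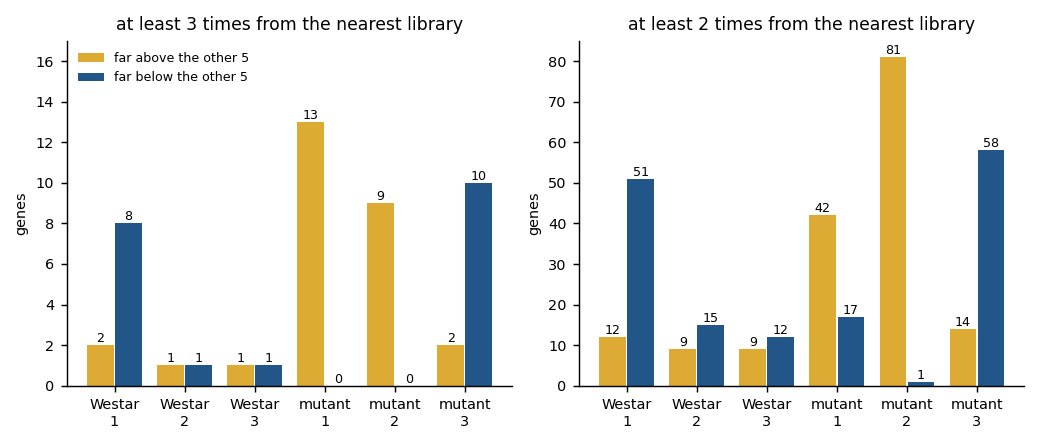
Number of genes in each library that lie at least 3 times (left) or 2 times (right) above the highest or below the lowest of the other 5 libraries, over the same 32112 genes. Low genes prevail in mutant library 3 (10 and 58) and Westar library 1 (8 and 51), and high genes in mutant libraries 1 (13 and 42) and 2 (9 and 81).

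A further set of genes lay low in mutant library 3 and, to a varying and at the median lesser degree, also in Westar library 3. When the rule was applied without Westar library 3, an alternative added with the values in view, 32 genes met it (28 below, 4 above). All 12 were among them, and leaving out a library can only loosen the fold condition. Without Westar library 1 the number was 16, without Westar library 2 it was 13, and without mutant library 1 or 2 it was 12. The 18 genes added below had a median of 10.7% of the level of the other 4 libraries in mutant library 3 and 23.2% in Westar library 3 (range 6.33% to 83.3%). Westar library 3 had to be the library that kept them out of the rule. These genes are not among the 12: at the 10 genes far below, the lowest of the other 5 was Westar library 1 at 6, mutant library 1 at 2 and mutant library 2 at 2, and Westar library 3 at 0.

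The 12 genes were scattered over 7 of the 16 chromosomes the rule left in. The 10 far below lay on C01 (3), C02 (3), C05, C08, C09 and A03, and the 2 far above on A03 and A05. The C subgenome thus held 9 of the 10, beside 54.7% of the 32112 genes. In Westar library 1 it held 6 of the 8 genes far below. At a fold of 2 this lean was not seen in mutant library 3: 33 of the 58 genes below (56.9%) lay on the C subgenome, and of the 48 between 2 and 3 times it held 24. Members of one chromosome were never close together. The smallest distance was 445 ID numbers, between genes 1581 and 2026 of C02. The median log2 deviation of mutant library 3 ran from -0.01 to 0.04 over the 16 chromosomes, so none of them was shifted as a whole.

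The neighbours of most members were at their usual level in mutant library 3. For each member the 5 nearest genes on either side with a mean of at least 2 CPM were taken, and their log2 (CPM + 0.5) was set against its median in the remaining libraries. The median over these 10 neighbours lay between -0.111 and 0.223 at 11 of the 12 genes. Over 31953 genes the 5th to 95th percentile of the same measure was -0.19 to 0.217. Among the 100 neighbours of the genes far below, 2 were at -1 or lower. Around BnaC05T0558600WE, which had a deviation of -3.51, the neighbours ran from -0.53 to 0.45. Around BnaA03T0015200WE, with a deviation of 5.74, they ran from -1.16 to 0.96, with a median of 0.223, just above the 95th percentile of 0.217. Its nearest neighbours with enough counts were 59 ID numbers before and 24 after it, so genes directly beside it were not seen. The low level was thus not shared by most neighbours of the genes far below.

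Gene 1970 of C09 was the exception among the genes far below. Its 10 neighbours, ID numbers 1960 to 1984, had a median deviation of -0.47 in mutant library 3, and 7 of the 10 were below 0, the lowest at -0.85. A neighbour median as low as this was found at 0.0626% of the genes that met the rule's other conditions. The same neighbours had medians of 0.06, 0.22 and 0.31 in Westar libraries 1, 2 and 3 and of -0.09 in both mutant libraries 1 and 2, so all 3 mutant libraries were lower than the Westar ones here. Over the 100 ID numbers before gene 1970 (37 genes) the median in mutant library 3 was 0.01, with -0.04 and -0.02 in mutant libraries 1 and 2 and -0.16, -0.01 and 0.19 in the Westar libraries, so the groups overlapped. Over the 100 after it (35 genes) mutant library 3 was at -0.09 and mutant libraries 1 and 2 at -0.13 and -0.08, all below the Westar libraries at 0.16, 0.08 and 0.07. The low level of mutant library 3 was thus not seen in the window before the gene. It was weaker in the window after it, where mutant library 1 was lower still. In that window after the gene the mutant libraries stayed below the Westar ones. These group differences were not tested, and the share of all such windows in which the groups lie apart is not given here. The stretch was singled out by the low neighbour median of mutant library 3, so no genotype effect is read from it.

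**Figure D4:**
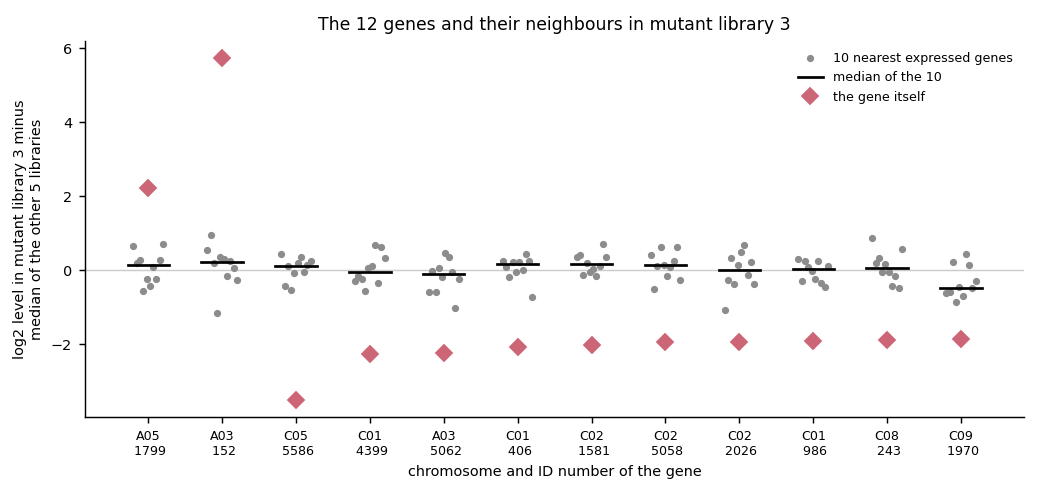
Deviation of mutant library 3 from the median of the remaining libraries, on the log2 (CPM + 0.5) scale, for each of the 12 genes (red diamonds) and its 10 nearest expressed genes (grey points, with their median as a black bar). The neighbours lie around zero except at C09 gene 1970, where their median is -0.47.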

How the data were processed

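The authors deposited raw read counts per gene with a column for each library. The aligner was HISAT2 2.2.1 and the counter featureCounts, per the submitters' processing notes. Not given in the sources used here are build, annotation, strand setting and treatment of reads with several matches, so reads of near-identical copies may have moved between them. CPM was each count over its column sum times 1000000. The 12 genes, the rule and the comparisons were chosen with earlier results of these data known. By rule 4 IDs are given in full, the 2 highest and the 2 lowest against the nearest other library. Both comparisons used edgeR 4.0.16 in R 4.3.3 (quasi-likelihood F test, TMM scaling, filterByExpr at a minimum count of 10, group as the sole term, Benjamini-Hochberg adjustment over all genes, threshold 0.05). All 12 genes passed this filter. DESeq2 1.42.0, median-of-ratios scaling, no filter, a replicate block and leaving out each library were alternatives. Standard errors came from the F statistic. Libraries differed at 60344 genes or more, so none was a copy of another.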

Additional observations from a re-analysis of the deposited data

How the results depend on the processing

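In both comparisons the number of the 12 genes called was 0 under all alternatives run. The 94 genes called in all with 6 libraries became 451 with no filter, 779 with DESeq2, 49 with the replicate block and 18 to 167 with 1 library left out (fewest without Westar library 1, most without mutant library 3). The 167 genes called without mutant library 3 became 1095 with no filter, 1155 with DESeq2, 22 with the replicate block and 47 to 344 with a further library left out (without Westar library 3 and without Westar library 2). In that block Westar library 3 has no partner. Deviations of same-numbered libraries correlated at -0.15, -0.10 and 0.15, and Westar library 2 correlated best with mutant library 1, at 0.29. So few values cannot settle whether the numbers pair libraries, and both main comparisons used no pairing. The cause of these differences in number was not tested. Where 1 mutant library remained, it was assumed to vary like the others.

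The 12 genes of the rule (2 above, 10 below) became 7 (1 and 6) with a pseudocount of 1, 1 (0 and 1) with a fold of 4, 72 (14 and 58) with a fold of 2, 11 (2 and 9) with TMM scaling, 10 (1 and 9) with a minimum mean of 5 CPM, and 12 to 32 (2 to 4 above, 10 to 28 below) with 1 other library left out. The 11 genes with TMM scaling were all among the 12; for the pseudocount of 1, the fold of 4 and the higher minimum mean this is fixed by construction. The 72 at a fold of 2 hold all 12, which is also fixed by construction.

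Without mutant library 3, the 48 values under another scaling, filter, tool or the block kept their sign. With a further library left out, 7 genes changed sign at least once, none of them called. The log2 fold change ran from -4.69 to 2.60 at BnaA03T0015200WE, from -0.12 to 0.16 at BnaC05T0558600WE and from -0.27 to 0.15 at BnaC01T0439900WE. It ran from -0.32 to 0.33 at gene 406 and from -0.12 to 0.26 at gene 986 of C01, from -0.21 to 0.14 at gene 5058 of C02 and from -0.17 to 0.00 at gene 1970 of C09. BnaA03T0015200WE did not pass the filter without Westar library 1. At these depths the 4 counts of gene 406 in mutant library 3 limit its drop most.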
